A study of Mus musculus with 18 samples.

Results

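The genes described here are the developmental homeobox, Pax and T-box genes, transcription factors that assign position and fate to cells of the embryo. They were chosen by symbol alone, as the protein-coding genes of GENCODE M21 in the Hoxa, Hoxb, Hoxc and Hoxd clusters and in the Pax, Lhx, Tbx, Dlx, Irx, Nkx and Six-type families, with a T-box gene left out by the rule. The rule gave 100 of the 54446 genes counted, 21918 of which are protein-coding. They comprised 11 Hoxa, 10 Hoxb, 9 Hoxc, 9 Hoxd, 9 Pax, 8 Lhx, 12 Tbx, 6 Six-type, 6 Dlx, 6 Irx and 14 Nkx genes.

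Nascent RNA was captured from mouse embryonic stem (mES) cells after 10, 20 or 40 min in 1 mM 5-ethynyl uridine (EU), a uridine analogue that is built into new transcripts and allows them to be pulled out through its alkyne group. WT cells and Tet2-/- cells (Tet2-KO, here KO) were each labelled for the 3 times with 3 replicates, 18 libraries in all. All cells were grown in serum with LIF, CHIR99021 and PD0325901, and feeder cells had been removed by passages on gelatin. The replicates were dishes of a single WT line and a single knockout line, not separate clones, so the effect of the deletion and other differences between the lines cannot be told apart and p-values cover the spread between dishes only.

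Between 17931614 and 23069143 reads per library fell on genes and between 44162 and 512186 on the synthetic ERCC RNAs, which were added in proportion to total RNA. A level is given here as reads per 1000 ERCC reads, that is, labelled RNA per total RNA and not per cell. In such bulk samples, fewer cells of a type and less RNA per cell cannot be told apart. The pluripotency genes Nanog and Esrrb were read in every library, with 4971 to 7201 and 13953 to 19119 reads. Reads over the whole Tet2 gene were also present in the libraries labelled KO (9730 to 13011 per library, against 13117 to 17092 in WT), and at 40 min the Tet2 level was 254 ± 19 reads per 1000 ERCC reads in KO and 182 ± 7.41 in WT (SD, n = 3). A count over a whole gene does not show which part was deleted, so it does not check the labels.

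Homeodomain proteins bind DNA through a conserved fold, and the Hox genes among them lie in clusters in which the order of the genes follows the head-to-tail axis of the body. Pax proteins carry a paired domain, Lhx proteins a pair of LIM domains beside the homeodomain, and Tbx proteins the T-box. In mES cells most of these genes are known as silent or poised, with promoters rich in CG dinucleotides that are held by Polycomb complexes and are little methylated. TET2 oxidises 5-methylcytosine.

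The 250 bases before the RefSeq start of 5 members are shown with every CG in capitals, because CG is the usual site of DNA methylation in these cells. They are Pax2 and Lhx6, among the 3 members that rose most, Six4, which had the most reads of all members, and Nkx6-2 and Pax8, which fell. The build is GRCm38.p6. The windows lie at chr19:44755502-44755751 (plus strand), chr2:36105409-36105658 (minus strand), chr12:73113426-73113675 (minus strand), chr7:139582798-139583047 (minus strand) and chr2:24475600-24475849 (minus strand), each ending at the base before the RefSeq start, which for Pax2 and Six4 is not the GENCODE start.
Pax2: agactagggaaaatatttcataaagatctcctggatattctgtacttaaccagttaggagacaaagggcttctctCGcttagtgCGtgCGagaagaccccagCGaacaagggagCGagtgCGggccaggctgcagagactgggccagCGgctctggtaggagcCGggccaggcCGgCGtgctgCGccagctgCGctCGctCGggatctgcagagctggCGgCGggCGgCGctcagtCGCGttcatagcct
Lhx6: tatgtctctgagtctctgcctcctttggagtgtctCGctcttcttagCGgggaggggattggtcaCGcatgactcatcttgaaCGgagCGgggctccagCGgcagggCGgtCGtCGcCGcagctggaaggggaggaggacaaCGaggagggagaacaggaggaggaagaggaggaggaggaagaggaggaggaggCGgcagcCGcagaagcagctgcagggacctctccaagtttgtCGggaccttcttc
Six4: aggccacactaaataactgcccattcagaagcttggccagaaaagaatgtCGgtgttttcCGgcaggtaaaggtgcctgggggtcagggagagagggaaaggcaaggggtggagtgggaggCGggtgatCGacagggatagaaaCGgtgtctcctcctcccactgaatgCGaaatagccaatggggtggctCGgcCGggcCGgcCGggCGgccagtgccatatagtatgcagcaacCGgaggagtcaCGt
Nkx6-2: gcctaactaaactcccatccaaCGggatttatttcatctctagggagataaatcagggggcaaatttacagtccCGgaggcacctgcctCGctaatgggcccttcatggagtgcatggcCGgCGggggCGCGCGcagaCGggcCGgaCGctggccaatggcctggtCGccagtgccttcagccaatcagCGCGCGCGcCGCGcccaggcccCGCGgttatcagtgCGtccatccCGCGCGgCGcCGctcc
Pax8: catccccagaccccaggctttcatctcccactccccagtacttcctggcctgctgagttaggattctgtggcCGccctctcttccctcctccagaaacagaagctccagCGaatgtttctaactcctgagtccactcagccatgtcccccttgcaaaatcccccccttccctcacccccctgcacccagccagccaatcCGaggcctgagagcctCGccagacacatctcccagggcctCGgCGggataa

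Pax2 held 20 CG in its window, Lhx6 14, Six4 13, Nkx6-2 26 and Pax8 6. Thus the members that fell include both the richest and the poorest of the windows shown. A RefSeq window was found for 66 of the 100 members, with a median of 13 CG, against a median of 10 (quartiles 3 and 19) over 16513 protein-coding genes. The median was 13 both in the 23 members with a window that were tested and in the 43 that were not. TATAAA on either strand was present in 6 member windows, 9.09%, and in 11.9% of all windows. A match to these letters is a description and not a binding site.

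Most members were read little or not at all. No read fell on 12 of the 100 in any library, 11 more never had over 3 reads in a library, and 41 others had more reads but did not pass edgeR's filterByExpr on the 6 groups. The remaining 36 were tested. The filter keeps genes with about 10 reads or more in at least 3 libraries, so a member could pass it through a single group. All members together had 43565 reads. Six4 alone had 11974 of them (27.5%), Hoxb9 3854 (8.85%), Tbx20 3499 (8.03%) and Lhx6 2615 (6.00%), so that 4 genes held 50.4% of the reads and 10 genes held 73.8%. No member was read in 1 genotype only, taken as at most 3 reads in every library of one genotype and over 10 in every library of the other.

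Among the Hox clusters, read counts were unevenly spread, and the genes at the posterior end of Hoxc and Hoxb9 stood out. Hoxb9 (chr11:96271457-96276595, plus strand), which acts in the thoracic skeleton and mammary gland, had 142 to 285 reads per library, whereas its neighbour Hoxb8 had 0 to 5 and the other 8 Hoxb genes had at most 12 in any library. In the Hoxc cluster, Hoxc12 had 54 to 177 reads per library, Hoxc13, a gene of hair and nail formation, 42 to 115, and Hoxc11 8 to 53, and Hoxc4 and Hoxc5 at the other end of the cluster 20 to 101 and 20 to 89. In the Hoxa cluster, Hoxa7 had 6 to 31 reads. No Hoxd gene passed the filter, and the 9 of them shared 230 reads over the 18 libraries. 

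**Figure D1:**
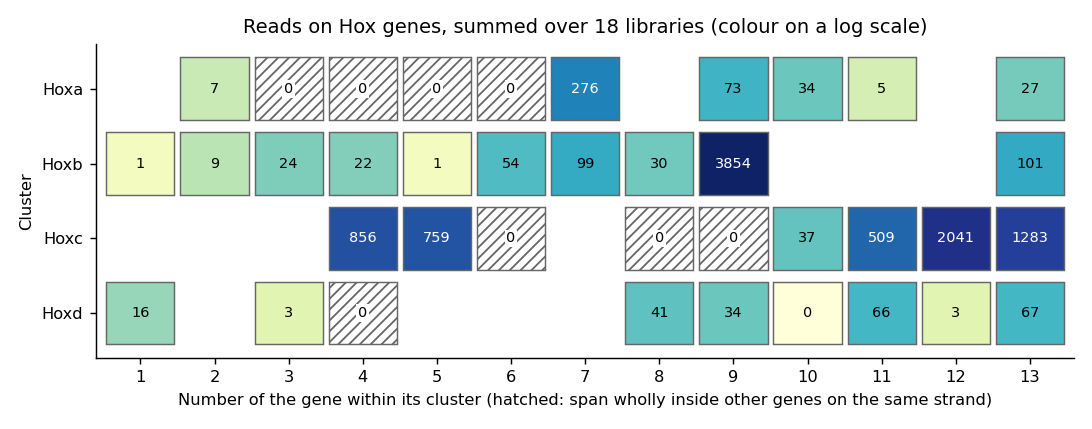
Reads on Hox genes, summed over the 18 libraries, with the cluster on the vertical axis and the number of the gene within its cluster on the horizontal axis; colour follows the log of the sum and hatched boxes are genes whose whole span lies inside other genes on the same strand. Hoxb9 (3854), Hoxc12 (2041) and Hoxc13 (1283) carry the most reads, and the Hoxd row stays at 67 or below.

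A count of 0 means different things for different members. For 9 of the 12 members with no read (Hoxa3, Hoxa4, Hoxa5, Hoxa6, Hoxc6, Hoxc8, Hoxc9, Hoxd4 and Nkx1-2) the whole annotated span lies inside other genes on the same strand, and of all 472 protein-coding genes placed in this way 471 (99.8%) were at 0 in every library. Of protein-coding genes with no other gene on either strand, 1549 of 11842 (13.1%) were at 0. Reads on shared bases were therefore not assigned to either gene, and the 0 of these 9 members cannot be read as absence of transcription. The same holds in part for Hoxc5, Hoxc10, Hoxd3, Hoxd10, Hoxd11 and Hoxa2, of whose spans 19568 of 49987, 647 of 5098, 526 of 36516, 911 of 3182, 3889 of 7460 and 942 of 2415 bases are their own. Nkx2-1, the regulator of thyroid and lung, and Nkx2-6, which acts in the pharynx and heart, had spans that were their own and no read in any library. A single count of 0 allows up to 3 reads in that library, and zeros in all 18 libraries allow fewer per library. Hoxd10 also had no read on the 911 bases left to it.

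Outside the Hox clusters, the Tbx and Six-type genes held most of the reads. Six-type genes had 31.9% of all member reads, Tbx 23.1%, Hoxc 12.6%, Hoxb 9.63%, Lhx 7.52%, Pax 5.96%, Nkx 3.94%, Irx 2.77%, Hoxa 1.48%, Dlx 0.576% and Hoxd 0.528%. Tested members numbered 8 of 12 in Tbx, 6 of 9 in Pax, 5 of 9 in Hoxc, 5 of 14 in Nkx, 3 of 8 in Lhx, 3 of 6 in the Six-type family, 3 of 6 in Irx, 2 of 11 in Hoxa and 1 of 10 in Hoxb. None of the 6 Dlx genes, which pattern the jaw and forebrain, was tested. The most read of them, Dlx1, had 0 to 16 reads per library, and the 6 together had 6 to 24.

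Levels of different genes were compared only per kb of a gene's own span, as the mean over the 18 libraries in reads per 1000 ERCC reads and kb. On this scale Hoxc12 came first (0.584), ahead of Six4 (0.492) and Hoxb9 (0.426). Nkx6-2 (0.109), Hoxc13 (0.0916), Hoxc11 (0.0829), Irx2 (0.0699), Lhx6 (0.0647) and Nkx2-9 (0.0631) were the next of those named here. Tbx20 and Tbx15, which rank among the members with most reads, lay at 0.0286 and 0.00868, with spans of 56166 and 113879 bases. The 6 tested Pax genes were all low per kb, from 5.32e-04 for Pax3, the lowest of the 36, to 0.00525 for Pax6.

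The members below the filter had at most 112 reads each over all libraries. Summed over the 18 libraries, members with most reads in each family included Irx4 (112) and Irx1 (74) among the Iroquois genes, Hoxb13 (101), Hoxb7 (99) and Hoxb6 (54) in Hoxb, Lhx8 (92), Lhx4 (49) and Lhx5 (43) in Lhx, Nkx2-5 (87) in Nkx, Dlx1 (79), Dlx3 (75) and Dlx6 (39) in Dlx, Hoxa9 (73), Hoxa10 (34) and Hoxa13 (27) in Hoxa, Hoxd13 (67), Hoxd11 (66) and Hoxd8 (41) in Hoxd, Pax9 (66) and Pax1 (51) in Pax, Six2 (34) and Six3 (11) among the Six-type genes, Tbx1 (33) and Tbx19 (29) in Tbx and Hoxc10 (37) in Hoxc. Nkx2-5 acts in the heart, Hoxb13 in the tail and prostate, Pax9 and Pax1 in tooth, thymus and spine, and Hoxd13 and Hoxd11 in the digits and forearm. The 11 members that had reads but never over 3 in a library were Hoxa11, Hoxa2, Hoxb1, Hoxb5, Hoxd12, Hoxd3, Pax4, Lhx1, Six6, Nkx2-3 and Nkx3-2.

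The comparison of genotypes asks how the labelled RNA of these genes differs between KO and WT cells. Averaged over the 3 labelling times, 21 of the 36 tested members rose in KO and 3 fell (edgeR's quasi-likelihood test with ERCC totals as library sizes, adjusted p under 0.05). Over all 19910 genes tested, 80.5% were called higher and 4.15% lower. The median log2 fold change was 0.55 for the members and 0.70 for all genes, and 14 members lay above and 22 below that overall median. Because nearly all genes moved up together, each member was also compared as a share of the reads on genes (TMM scaling), where the median of all genes is 0.00. On that scale 9 members had a higher share in KO and 11 a lower one, against 28.6% and 27.9% of all genes, and the member median was -0.14. With the 10 min libraries left out of the average, 17 members were higher and 2 lower in amount, and 6 higher and 7 lower in share, against 70.2% and 4.73% of all genes in amount and 25.1% and 23.5% in share.

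As a group the members kept a nearly constant part of the nascent RNA. Their reads summed to 120.5 ± 2.27 CPM (reads scaled to a common total of gene reads) in WT and 113 ± 4.96 in KO at 10 min (SD, n = 3), 119.7 ± 4.05 and 116 ± 3.99 at 20 min, and 121 ± 0.582 and 125 ± 1.28 at 40 min. Within the group, 9 members rose in both amount and share: Pax2, Tbx4, Lhx6, Lhx9, Nkx2-9, Lhx2, Hoxb9, Tbx15 and Six4. With 1 library left out in turn, 6 to 8 members were higher in share. The share calls of Lhx2, Lhx9, Nkx2-9 and Tbx15 were lost in some of these fits. Pax8, Nkx6-2 and Pax3, which passed the filter through WT alone, fell on both scales. Hoxc12, Tbx18 and Tbx20 rose in amount while their share fell, and Hoxc4, Hoxc5, Hoxc11, Irx3 and Pax7 were not called in amount while their share fell. The other 9 members that rose in amount, among them Nkx2-4, Nkx6-3, Irx5, Tbx21, Irx2, Pax5, Tbx2 and Hoxc13, were not called in share, and 7 members, Hoxa7, Nkx2-2, Pax6, Six5, Tbx5 and Tbx6 among them, were called on neither scale. How many of all genes fell into each of these combined classes was not counted. Any gene whose rise in amount was below the median of all genes can have a lower share, so such a pair of calls is not particular to members.

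**Figure D2:**
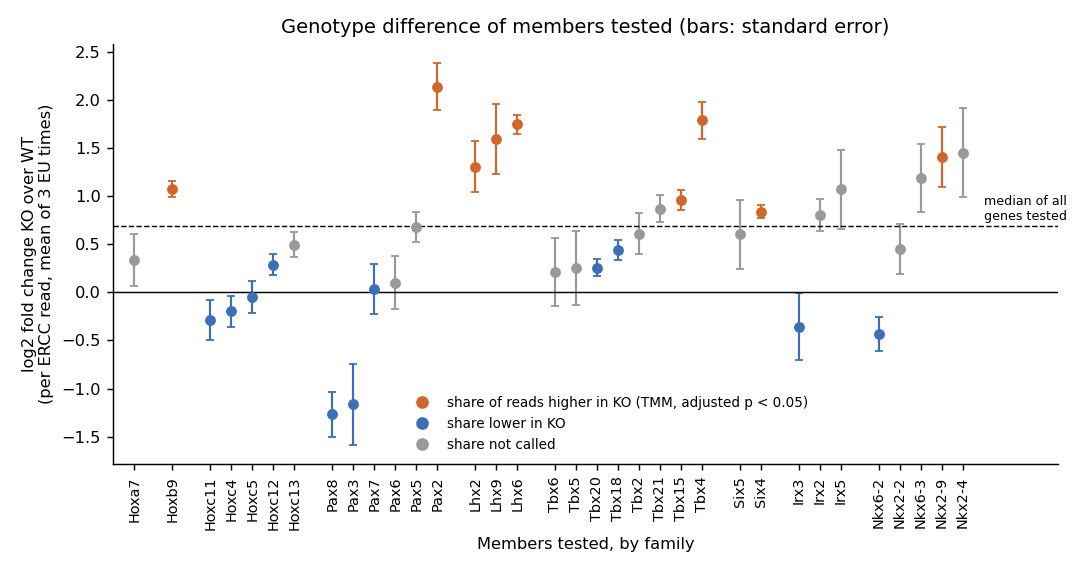
Log2 fold change of KO over WT per ERCC read, averaged over the 3 EU times, for tested members ordered by family and by value, with standard errors as bars; orange and blue points are members whose share of reads (TMM) was higher or lower in KO and grey points were not called in share. The dashed line is the median of all genes (0.70). All 3 Lhx genes lie above it and all 5 Hoxc genes below it, from -0.29 to 0.50; colour and not position shows which members were called in share.

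All 3 LIM-homeobox genes tested rose in amount and in share, although only the share call of Lhx6 was firm. Over all genes, 80.5% were called higher in amount and 28.6% in share. Lhx6, needed for the interneurons of the cortex (chr2:36081953-36105408, minus strand), had WT levels of 0.169, 0.297 and 0.189 at 10 min, 0.698, 0.747 and 0.751 at 20 min and 1.27, 1.38 and 0.930 at 40 min. Its KO levels were 0.888, 0.975 and 0.809 at 10 min, 1.98, 2.25 and 1.92 at 20 min and 4.35, 3.38 and 4.16 at 40 min. At each time the lowest KO library lay above the highest WT library, and this also held for the share of reads, where Lhx6 was the only member with no overlap at all 3 times on the high side (background 13.8% of genes). The log2 fold change was 1.75 ± 0.098 (SE, adjusted p = 8.14e-53) in amount and 1.06 ± 0.090 (SE, adjusted p = 3.64e-12) in share. Lhx2, a gene of eye and forebrain, rose by 1.31 ± 0.27 (SE, adjusted p = 2.28e-06) and Lhx9, a gene of the gonad, by 1.60 ± 0.36 (SE, adjusted p = 1.71e-05), from 7 to 26 and 1 to 16 reads per library. Their shares were higher by 0.62 ± 0.26 (SE, adjusted p = 0.0386) and 0.92 ± 0.36 (SE, adjusted p = 0.0297), and neither share call was firm. Lhx9 reached 10 reads in 2 WT and 5 KO libraries and passed the filter through KO, so its calls as higher are not independent of that selection. The share call of Lhx2 was lost in 10 of the 18 fits that left out 1 library (log2 0.50 to 0.80), those without WT at 10 min (1 and 2), WT at 20 min (3), WT at 40 min (2 and 3), KO at 10 min (3), KO at 20 min (1 and 2) and KO at 40 min (2 and 3) with the replicate in parentheses. That of Lhx9 was lost in 9 of the 18 fits that left out 1 library (log2 0.75 to 1.15), those without WT at 10 min (3), WT at 20 min (1 and 3), WT at 40 min (1 and 2), KO at 10 min (1), KO at 20 min (1 and 3) and KO at 40 min (1) with the replicate in parentheses. The other 5 Lhx genes were not tested, and Lhx1 never had over 3 reads in a library.

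Six4, which acts in muscle, ear and kidney, was the best measured member (chr12:73099609-73113456, minus strand). In WT its levels were 1.22, 1.27 and 1.08 at 10 min, 4.43, 4.34 and 4.61 at 20 min and 9.28, 10.5 and 9.67 at 40 min. In KO they were 2.88, 2.73 and 2.93 at 10 min, 6.09, 7.05 and 6.56 at 20 min and 18.9, 14.4 and 14.8 at 40 min. The genotypes did not overlap at any time, and Six4 was one of 9 members with KO above WT in this way (51.6% of all genes), as were Hoxb9, Lhx6, Pax2, Tbx4, Tbx15, Tbx18 and Tbx21. No member lay below WT at all 3 times without overlap (1.56% of genes). Six4 rose by 0.84 ± 0.063 (SE, adjusted p = 8.02e-34), close to the 0.70 of all genes, and its share was higher by 0.15 ± 0.040 (SE, adjusted p = 0.00240). Without the 10 min libraries the share difference was 0.068 and no longer called (adjusted p = 0.262). Six5, with 1 to 15 reads per library, gave 0.61 ± 0.36 (SE, adjusted p = 0.104) and was not called.

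The Pax genes split, with the largest differences in both directions. Pax2, a regulator of kidney, eye and ear (chr19:44756045-44837871, plus strand), gave WT levels of 0.00209, 0.0320 and 0.0254 at 10 min, 0.125, 0.116 and 0.157 at 20 min and 0.116, 0.0886 and 0.105 at 40 min. The KO levels were 0.141, 0.154 and 0.137 at 10 min, 0.294, 0.457 and 0.195 at 20 min and 0.611, 0.489 and 0.509 at 40 min. KO lay above WT at each time, by 2.14 ± 0.25 (SE, adjusted p = 1.25e-16) on average, the highest value among the tested members, and its share rose by 1.45 ± 0.25 (SE, adjusted p = 7.27e-06). The reads behind this were few, 1 to 24 per library in WT and 18 to 41 in KO. Pax5, the B cell regulator of the same subfamily, rose by 0.68 ± 0.16 (SE, adjusted p = 2.03e-05) with a share difference of -0.0066.

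Pax8, the thyroid and kidney gene that is closely related to Pax2 and Pax5 (chr2:24420560-24475599, minus strand), fell. In WT its levels were 0.180, 0.0959 and 0.0761 at 10 min, 0.353, 0.224 and 0.294 at 20 min and 0.380, 0.494 and 0.360 at 40 min. In KO they were 0.0768, 0.00995 and 0.0581 at 10 min, 0.152, 0.145 and 0.0651 at 20 min and 0.204, 0.199 and 0.0885 at 40 min. The genotypes overlapped at 10 min only, where 1 KO library lay just above the lowest WT library. The difference was -1.27 ± 0.23 (SE, adjusted p = 1.77e-07) in amount and -1.96 ± 0.25 (SE, adjusted p = 2.99e-08) in share, and it was called at each of the 3 times, with log2 values of -1.24, -1.26 and -1.31. Pax3, which marks neural crest and muscle precursors, had 5 to 23 reads per library in WT and 0 to 6 in KO and fell, with a log2 value of -1.17 ± 0.42 (SE, adjusted p = 0.00704). Pax3 reached 10 reads in 4 WT libraries and in no KO library, so it entered the test only through the genotype in which it was high, and its call as lower is not independent of that selection. The call also rested on the 10 min libraries, where the log2 value was -2.11 ± 0.71 (SE, adjusted p = 0.00465), and without them it was -0.70 (adjusted p = 0.213). In share, Pax8, Pax3 and Hoxc4 lay below WT with no overlap at all 3 times (12.0% of genes). Pax7, the sister gene of Pax3, and Pax6, the eye regulator, gave 0.034 ± 0.26 (SE, adjusted p = 0.906) and 0.10 ± 0.28 (SE, adjusted p = 0.733). The share of Pax7 fell by 0.64 on the log2 scale (adjusted p = 0.0308), a call lost in 5 of the 18 fits that left out 1 library (log2 -0.76 to -0.43), those without WT at 10 min (2), WT at 20 min (2), WT at 40 min (1), KO at 10 min (3) and KO at 40 min (1) with the replicate in parentheses.

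Among the tested Hox genes, Hoxb9 rose more than the median of all genes and the 5 Hoxc genes lay below that median. Hoxb9 levels in WT were 0.453, 0.523 and 0.277 at 10 min, 1.37, 1.31 and 1.33 at 20 min and 2.53, 2.28 and 2.58 at 40 min. In KO they were 1.08, 0.771 and 1.14 at 10 min, 2.10, 2.61 and 2.21 at 20 min and 5.37, 5.16 and 6.30 at 40 min. They did not overlap, and the difference was 1.08 ± 0.086 (SE, adjusted p = 1.87e-30) in amount and 0.38 ± 0.081 (SE, adjusted p = 1.33e-04) in share. Hoxc12 (chr15:102936757-102938609, plus strand) gave 0.194, 0.359 and 0.303 at 10 min, 0.978, 1.00 and 1.16 at 20 min and 1.32, 1.47 and 1.53 at 40 min in WT. It gave 0.444, 0.313 and 0.285 at 10 min, 0.903, 1.03 and 0.803 at 20 min and 2.54, 2.50 and 2.34 at 40 min in KO. The libraries overlapped at 10 and 20 min and were apart at 40 min, with KO higher. Hoxc12 rose in amount by 0.29 ± 0.11 (SE, adjusted p = 0.00908) and fell in share, with a log2 value of -0.40 ± 0.11 (SE, adjusted p = 0.00169). The amount was no longer called without replicate 1 of WT at 10 min (0.22) or replicate 1 of KO at 10 min (0.22), nor the share without all 10 min libraries (-0.27, adjusted p = 0.0804).

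Of the 5 Hoxc genes tested, 2 rose in amount and none fell, beside 80.5% and 4.15% of all genes. In share 4 fell and none rose, beside 27.9% and 28.6% of all genes. Hoxc13 had mean levels of 0.139 ± 0.0213, 0.598 ± 0.0812 and 1.08 ± 0.163 in WT at the 3 times (SD, n = 3) and 0.257 ± 0.0723, 0.666 ± 0.110 and 1.5 ± 0.222 in KO. It rose by 0.50 ± 0.13 (SE, adjusted p = 1.92e-04) with a share difference of -0.20 ± 0.12 (SE, adjusted p = 0.168). Hoxc4, at the anterior end of the cluster (chr15:103018934-103036852, plus strand), had 34 to 101 reads per library in WT and 20 to 42 in KO. Its amount differed by -0.20 ± 0.16 (SE, adjusted p = 0.247) and its share by -0.88 ± 0.15 (SE, adjusted p = 6.48e-06). Hoxc5 gave -0.048 ± 0.17 (SE, adjusted p = 0.793) and -0.74 ± 0.16 (SE, adjusted p = 2.35e-04) in amount and share, and Hoxc11 gave -0.29 ± 0.21 (SE, adjusted p = 0.190) and -0.97 ± 0.19 (SE, adjusted p = 6.47e-05). Hoxc5, Hoxc4 and Hoxc11 thus showed no called difference in labelled RNA per total RNA, where 80.5% of genes were called higher. In the Hoxa cluster, Hoxa7 gave 0.34 ± 0.27 (SE, adjusted p = 0.235) and was not called on either scale.

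**Figure D3:**
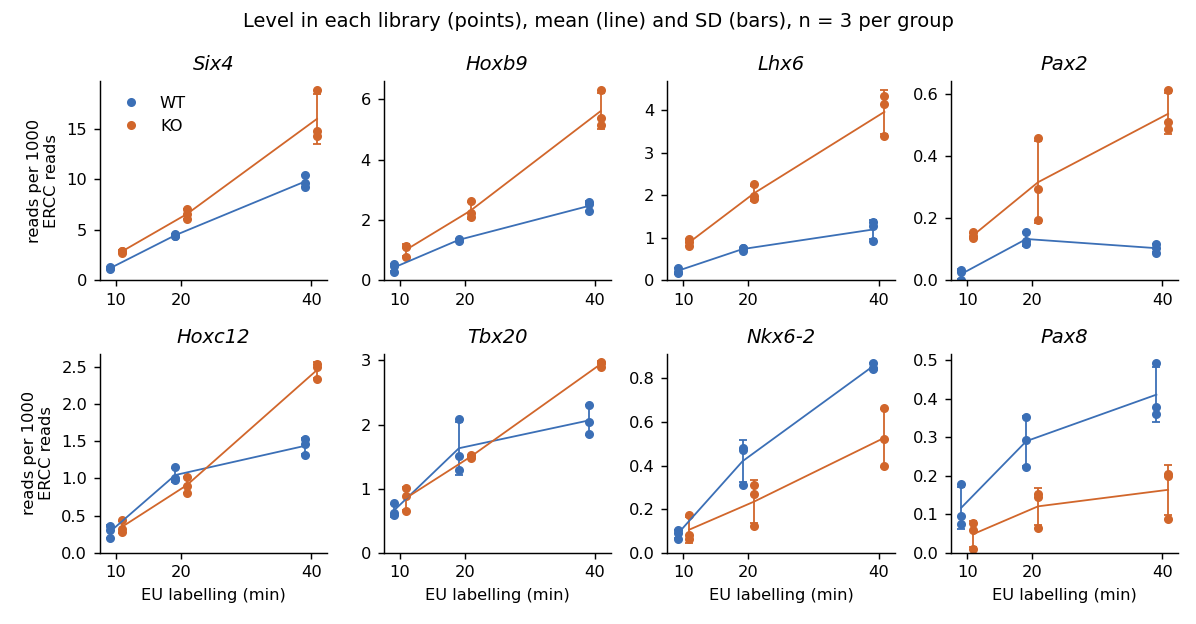
Levels of 8 members in each library, in reads per 1000 ERCC reads, against EU time, with WT in blue and KO in orange, the line through the means and bars of 1 SD (n = 3). KO lies above WT at every time for Six4, Hoxb9, Lhx6 and Pax2, whereas Hoxc12 and Tbx20, whose share of reads fell, overlap at 10 and 20 min and Nkx6-2 and Pax8 lie below WT at 40 min.

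Of the 8 T-box genes tested, 6 rose in amount and none fell, beside 80.5% and 4.15% of all genes. In share 2 were higher and 2 lower, beside 28.6% and 27.9% of all genes. Tbx4, a gene of hindlimb and lung (chr11:85886422-85916097, plus strand), gave 0.0459, 0.0388 and 0.0312 at 10 min, 0.140, 0.125 and 0.131 at 20 min and 0.264, 0.494 and 0.256 at 40 min in WT. It gave 0.295, 0.139 and 0.280 at 10 min, 0.406, 0.413 and 0.499 at 20 min and 0.770, 0.525 and 0.774 at 40 min in KO. The genotypes did not overlap at any time, and the difference was 1.79 ± 0.19 (SE, adjusted p = 1.97e-18) in amount and 1.10 ± 0.18 (SE, adjusted p = 2.26e-06) in share. Tbx2, which lies next to Tbx4 on the same strand, rose by 0.61 ± 0.21 (SE, adjusted p = 0.00588) with a share difference of -0.081. Tbx15, a skeletal gene, had mean levels of 0.341 ± 0.0149, 0.624 ± 0.0666 and 0.983 ± 0.0639 in WT at the 3 times (SD, n = 3) and 0.586 ± 0.0342, 1.23 ± 0.261 and 2.16 ± 0.348 in KO. It rose by 0.96 ± 0.11 (SE, adjusted p = 3.12e-17) and in share by 0.27 ± 0.096 (SE, adjusted p = 0.0183), a call lost without replicate 3 of KO at 20 min (0.21) or at 40 min (0.23). Tbx21, the regulator of type 1 helper T cells, rose by 0.87 ± 0.14 (SE, adjusted p = 2.09e-09) with a share difference of 0.17.

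Tbx20, a heart gene (chr9:24718138-24774303, minus strand), had WT levels of 0.582, 0.776 and 0.613 at 10 min, 1.51, 2.09 and 1.29 at 20 min and 1.85, 2.04 and 2.31 at 40 min. Its KO levels were 0.888, 0.657 and 1.00 at 10 min, 1.47, 1.51 and 1.52 at 20 min and 2.97, 2.97 and 2.90 at 40 min. KO was above WT at 40 min and the libraries overlapped at 10 and 20 min. Tbx20 rose by 0.26 ± 0.091 (SE, adjusted p = 0.00637) in amount, and its share fell, with a log2 value of -0.43 ± 0.082 (SE, adjusted p = 2.84e-05). Tbx18, a gene of the sinus node and somites, had mean levels of 0.310 ± 0.0200, 0.940 ± 0.0810 and 1.24 ± 0.0910 in WT (SD, n = 3) and 0.474 ± 0.110, 1.16 ± 0.162 and 1.63 ± 0.188 in KO. It rose by 0.44 ± 0.11 (SE, adjusted p = 7.76e-05) in amount and fell in share, with -0.25 ± 0.094 (SE, adjusted p = 0.0235), a call lost in 5 of the 18 fits that left out 1 library (log2 -0.31 to -0.21), those without WT at 40 min (1), KO at 10 min (2 and 3), KO at 20 min (2) and KO at 40 min (3) with the replicate in parentheses. Without the 10 min libraries the amount of Tbx20 was no longer called (0.20, adjusted p = 0.0997), nor was that of Tbx2 (0.42). Tbx5, of the forelimb and heart, and Tbx6, of the presomitic mesoderm, gave 0.25 ± 0.39 (SE, adjusted p = 0.535) and 0.21 ± 0.36 (SE, adjusted p = 0.569) and were not called.

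Markers of feeder fibroblasts, cells that such cultures can hold, differed between libraries. The 12 markers listed for them summed to 44.0 to 49.0 TMM-scaled CPM in WT at 10 min, 23.0 to 25.6 at 20 min and 25.4 to 28.3 at 40 min, and to 18.5 to 23.4, 27.5 to 29.1 and 18.2 to 20.6 in KO. Of the 8 markers tested, 4 rose in amount and 1 fell, beside 80.5% and 4.15% of all genes. In share 2 rose and 2 fell, beside 28.6% and 27.9% of all genes. Reads per library ranged from 183 to 508 for Fbn1, 32 to 182 for Col1a1, 24 to 161 for Pdgfrb, 8 to 138 for Col1a2, 4 to 96 for Prrx1 and 1 to 43 for Col3a1, and Postn, Twist2, Thy1, Dcn, S100a4 and Lum had at most 29, 16, 14, 6, 2 and 1. Tbx20, at 12.0, 14.7 and 13.7 CPM, and Tbx15, at 7.08, 6.14 and 7.90, also had their highest group mean in WT at 10 min. This was not particular to T-box genes, as Pax3, Pax8 and Hoxc4 had their highest group mean there too. The part of feeder cells in the values of any member was not tested.

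The Iroquois and Nkx genes, which act in heart, limb, gut and the ventral neural tube, were read at low counts. Irx2 rose by 0.81 ± 0.17 (SE, adjusted p = 4.99e-06) and Irx5 by 1.07 ± 0.41 (SE, adjusted p = 0.0114), and neither was called in share (0.11 and 0.39). Irx5 had 0 to 17 reads per library, and its call was lost without replicate 1 of KO at 10 min (0.68), replicate 2 at 20 min (0.83) or replicate 1 at 40 min (0.80). Irx3 gave -0.36 ± 0.35 (SE, adjusted p = 0.329) in amount and fell in share, with -1.05 ± 0.38 (SE, adjusted p = 0.0190), a call lost without replicate 1 of WT at 20 min (-0.62). Nkx2-4, Nkx2-9 and Nkx6-3 rose by 1.45 ± 0.46 (SE, adjusted p = 0.00225), 1.41 ± 0.31 (SE, adjusted p = 1.41e-05) and 1.19 ± 0.35 (SE, adjusted p = 0.00115), from 0 to 12, 3 to 25 and 1 to 18 reads per library. Of these 3, Nkx2-9 was also called in share, at 0.74 ± 0.31 (SE, adjusted p = 0.0396), a call lost in 10 of the 18 fits that left out 1 library (log2 0.52 to 0.90), those without WT at 10 min (1 and 2), WT at 20 min (2 and 3), WT at 40 min (1 and 3), KO at 10 min (2), KO at 20 min (1) and KO at 40 min (1 and 3) with the replicate in parentheses. Without the 10 min libraries Nkx2-9 was not called in amount (0.75) or in share (0.19). Of the genes of these families, Irx3 reached 10 reads in 6 WT and 1 KO libraries, Irx5 in 1 WT and 3 KO and Nkx2-4 in 2 WT and 3 KO, so that they too passed the filter through a single genotype. Nkx2-2, of the ventral spinal cord and pancreas, gave 0.45 ± 0.26 (SE, adjusted p = 0.0946) and was not called.

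Nkx6-2, a gene of the ventral neural tube and of oligodendrocytes (chr7:139579376-139582797, minus strand), went the other way. Its WT levels were 0.0647, 0.0913 and 0.103 at 10 min, 0.309, 0.482 and 0.470 at 20 min and 0.844, 0.848 and 0.872 at 40 min. Its KO levels were 0.0640, 0.0796 and 0.174 at 10 min, 0.122, 0.312 and 0.271 at 20 min and 0.521, 0.398 and 0.664 at 40 min. The genotypes overlapped at 10 min and, by 1 library, at 20 min, and were apart at 40 min, with KO lower. The mean difference was -0.43 ± 0.18 (SE, adjusted p = 0.0191) in amount and -1.13 ± 0.18 (SE, adjusted p = 2.16e-06) in share. In amount it was not called without replicate 1 of KO at 10 min (-0.34), replicate 1 at 20 min (-0.32) or replicate 2 at 40 min (-0.37), while the share call held in all 18 such fits.

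The families with no tested gene gave values only. Hoxd reads summed to 0.705 ± 0.559 CPM in WT and 0.462 ± 0.132 in KO at 10 min (SD, n = 3), 0.693 ± 0.237 and 0.468 ± 0.0881 at 20 min, and 0.947 ± 0.484 and 0.469 ± 0.178 at 40 min. Dlx reads summed to 0.705 ± 0.358 and 0.550 ± 0.434 at 10 min, 1.04 ± 0.227 and 0.659 ± 0.210 at 20 min, and 0.649 ± 0.255 and 0.537 ± 0.178 at 40 min. With 5 to 31 reads per library and family, the KO mean in CPM lay below the WT mean at each time in both families. The CPM ranges of the genotypes overlapped at every time except for Hoxd at 40 min. There WT lay between 0.650 and 1.51 CPM and KO between 0.279 and 0.633 CPM. In amount per ERCC read, the ratio of KO to WT means at 10, 20 and 40 min was 1.32, 0.961 and 0.810 for Hoxd. For Dlx it was 1.58, 0.888 and 1.30, so the direction in amount was not the same at each time. No test was made of these sums. Hoxd9 had 29 reads in WT and 5 in KO over all libraries, and Hoxd8 30 and 11.

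At single labelling times, the amount was called higher for 19 members and lower for 2 at 10 min (79.0% and 2.1% of all genes), 11 and 3 at 20 min (53.7% and 4.86%) and 15 and 2 at 40 min (68.2% and 2.84%). The member medians were 0.77, 0.18 and 0.58 on the log2 scale, beside 0.96, 0.45 and 0.67 for all genes. In share, the counts were 6 higher and 9 lower at 10 min (22.5% and 21.4% of genes), 4 and 5 at 20 min (20.3% and 18.2%) and 4 and 4 at 40 min (19.7% and 18.6%). Members called in amount at each of the 3 times were Hoxb9, Lhx6, Pax2, Six4, Tbx15, Tbx21 and Tbx4, all higher in KO, and Pax8, lower in KO. In share, Lhx6 was higher and Pax8 lower at each time. The part of all genes called at each of the 3 times was not counted on either scale. The counts of lower members were small and fell to 1 without replicate 1 of WT or replicate 2 of KO at 10 min, without replicates 2 or 3 of WT or 1 or 3 of KO at 20 min, and without replicate 3 of WT or replicates 1 or 2 of KO at 40 min.

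The purpose of several EU times is to follow labelled RNA as it gathers. From 10 to 40 min, 34 of the 36 members rose in WT and 34 in KO, with 96.7% and 94.7% of all genes called higher, and none fell, with 0.01% and 0.00502% of genes called lower. The member medians, 2.24 and 1.98 on the log2 scale, were close to the 2.26 and 2.0 of all genes. Nkx2-4 and Tbx5 were the members not called in either genotype, at 1.33 ± 0.75 (SE, adjusted p = 0.0810) and 0.98 ± 0.67 (SE, adjusted p = 0.150) in WT and 0.49 ± 0.78 (SE, adjusted p = 0.533) and 0.89 ± 0.72 (SE, adjusted p = 0.222) in KO. As a share of reads, Hoxa7, Hoxc13, Nkx2-9, Nkx6-2, Six4 and Tbx4 were higher at 40 min than at 10 min in WT and 3 members were lower, Tbx15 and Tbx20 among them (22.8% and 22.0% of genes). In KO, Hoxb9, Hoxc11, Hoxc12, Hoxc13 and Six4 were higher and Tbx21 was lower (20.1% and 16.8%). Six4 and Hoxc13 were the members called higher in share in both genotypes.

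The slope of the level on labelling time gives an estimate of the transcription rate, in reads per 1000 ERCC reads and minute, here with its standard error over 9 libraries and without a test. It was larger in KO for 29 of the 36 members (80.6%) and for 89.3% of the 15158 protein-coding genes tested, and the median ratio of KO to WT was 1.53 in the members and 1.54 in those genes. Six4 had a slope of 0.284 ± 0.0105 in WT and 0.444 ± 0.0375 in KO. For Hoxb9 it was 0.0665 ± 0.00446 in WT and 0.155 ± 0.0104 in KO, a ratio of 2.34, and for Lhx6 0.0311 ± 0.00440 in WT and 0.101 ± 0.00804 in KO, a ratio of 3.26. Hoxc12 gave 0.0358 ± 0.00580 in WT and 0.0714 ± 0.00317 in KO, and Tbx15 0.0209 ± 0.00166 in WT and 0.0517 ± 0.00646 in KO. The 7 members with the smaller slope in KO were Hoxa7, Hoxc4, Hoxc5, Irx3, Nkx2-4, Nkx6-2 and Pax8, with the lowest ratio at Pax8 (0.389, from 0.00926 ± 0.00190 in WT and 0.00361 ± 0.00135 in KO). Nkx6-2 had a slope of 0.0250 ± 0.00179 in WT and 0.0141 ± 0.00253 in KO.

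Whether the genotype difference itself changed between 10 and 40 min was tested as an interaction. It became smaller for Six4, Tbx4 and Nkx2-9, 3 of 36 members, and larger for none, with 19.3% and 0.552% of all genes. Six4 went from 1.26 ± 0.11 (SE, adjusted p = 1.05e-25) at 10 min to 0.56 ± 0.11 (SE, adjusted p = 2.11e-06) at 20 min and 0.71 ± 0.11 (SE, adjusted p = 4.49e-10) at 40 min, a change of -0.55 ± 0.15 (SE, adjusted p = 0.00535). Tbx4 went from 2.61 ± 0.33 (SE, adjusted p = 1.03e-13) to 1.73 ± 0.34 (SE, adjusted p = 2.18e-06) and 1.03 ± 0.33 (SE, adjusted p = 0.00315), a change of -1.58 ± 0.47 (SE, adjusted p = 0.00921). Nkx2-9, in which WT rose from 0.00626, 0.00913 and 0.0156 at 10 min to 0.148, 0.228 and 0.139 at 40 min, went from 2.74 ± 0.57 (SE, adjusted p = 4.15e-06) to 1.02 ± 0.54 (SE, adjusted p = 0.0901) and 0.48 ± 0.53 (SE, adjusted p = 0.422), a change of -2.26 ± 0.77 (SE, adjusted p = 0.0248). The median of all genes also fell, by 0.29 on the log2 scale, and in share none of the 36 members was called (8 at an unadjusted p under 0.05), against 3.89% of genes higher and 6.13% lower. Nkx2-9 lost its call in 4 and Tbx4 in 2 of the 18 fits that left out 1 library. For Nkx2-9 these were replicate 1 of WT at 10 min (-2.0), replicate 2 of WT at 40 min (-2.02), replicate 2 of KO at 10 min (-1.67) and replicate 2 of KO at 40 min (-2.09). For Tbx4 they were replicate 2 of WT at 40 min (-1.21) and replicate 2 of KO at 40 min (-1.40).

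**Figure D4:**
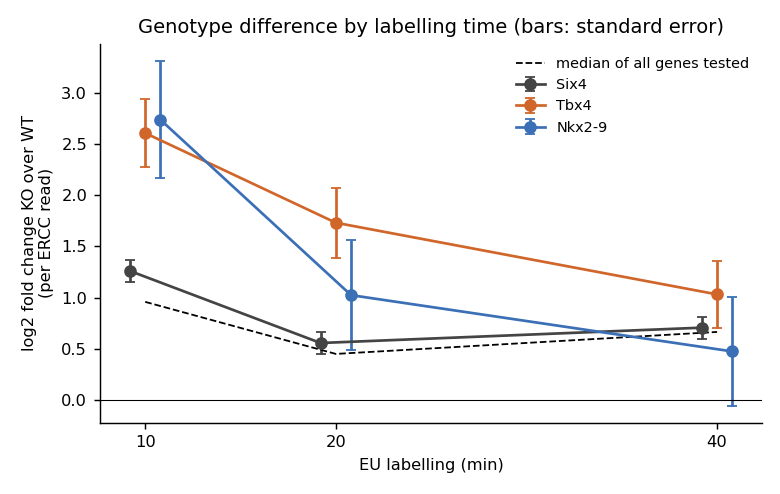
Log2 fold change of KO over WT per ERCC read at 10, 20 and 40 min of EU for the 3 members whose difference changed, with standard errors as bars and small horizontal offsets so that points do not overlap. Tbx4 falls from 2.61 to 1.03 and Nkx2-9 from 2.74 to 0.48, and Six4 goes from 1.26 to 0.71, beside 0.96 and 0.67 for the dashed median of all genes.

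Partners of these factors were called about as often as genes in general, of which 80.5% were higher in amount and 28.6% and 27.9% higher and lower in share. Of the TALE proteins that bind DNA beside Hox proteins (Pbx, Meis and Pknox), 8 of 9 rose in amount and none fell, and in share 3 were higher and 3 lower. Meis2 differed by 1.46 ± 0.053 in amount and 0.77 ± 0.021 in share and Pknox2 by 0.29 ± 0.053 in amount and -0.40 ± 0.021 in share (SE). Of the Eya and Dach partners of Six-family proteins, 5 of 6 rose in amount, and 1 was higher and 3 were lower in share, Eya1 being the higher one at 1.70 ± 0.056 in amount and 1.01 ± 0.025 in share. Among the LIM cofactors of the Ldb and Lmo families, which bind Lhx proteins, 5 of 6 rose in amount, and 2 were higher and 1 was lower in share. These lists had medians of 0.58, 0.55 and 0.84 in amount, beside 0.70 for all genes.

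Regulators upstream of Hox genes went in different directions. The background over all genes was 80.5% higher and 4.15% lower in amount, and 28.6% higher and 27.9% lower in share. Core Polycomb genes rose in amount in 28 of 29 tested cases and fell in none, with a median of 0.70 equal to that of all genes, and in share 11 were higher and 8 lower. Ezh2, the histone methyltransferase of the complex, differed by 0.54 ± 0.050 in amount and -0.16 ± 0.014 in share, and its partner Suz12 by 0.84 ± 0.049 in amount and 0.15 ± 0.012 in share. Targets of retinoic acid, the signal that opens the anterior Hox genes, rose in amount in 2 of 7 cases and fell in none, with a median of -0.00165, and in share 5 of 7 fell and none rose. Of the Cdx genes, which act upstream of posterior Hox genes, only Cdx1 was tested, and it fell, with differences of -1.19 ± 0.088 in amount and -1.89 ± 0.075 in share. Cdx2 and Cdx4 had at most 5 and 10 reads in any library.

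Other homeobox genes outside the families (22 of 41 tested) rose in amount in 10 cases and fell in 3, with a median of 0.53, and in share 3 were higher and 6 lower. Here and for the lists below, 80.5% of all genes were called higher and 4.15% lower in amount. In share these were 28.6% and 27.9%. Other T-box genes rose in amount in 2 of 3 cases, with 2 higher and 1 lower in share. Markers of other lineages were read unevenly, most of all Lama1, an endoderm gene of the basement membrane (3322 to 5604 reads per library), and Nes, a neural progenitor gene (471 to 1071). Of the trophoblast markers 4 of 7 were tested and all 4 rose in amount, 1 of them in share (Gata3). Of the primitive endoderm markers 6 of 8 were tested and rose, with 1 higher and 2 lower in share. Mesendoderm and neuroectoderm markers were tested in 2 of 6 and 2 of 8 cases, with 1 rise in the first and 1 rise and 1 fall in the second in amount, and with 1 and 2 falls in share. Pluripotency markers rose in 6 of 8 tested cases and fell in 1, with 2 higher and 5 lower in share, and 2-cell-like markers fell in 4 of 4 on both scales.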

How the data were processed

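EU-labelled RNA was captured from mES cells of both genotypes, reverse transcribed and sequenced, with ERCC RNAs added to the captured RNA in an amount set by each sample's total RNA. The values are raw read counts per gene that the authors deposited for each library. Per the labels and the study's methods, reads were trimmed with Trimmomatic 0.39, aligned to mm10 with HISAT2 2.2.1 and counted with HTSeq 0.12.4. The feature type and strand setting of the counting are not given in the sources used here. In the files, genes wholly inside another gene on the same strand were at 0, so shared bases were left out of the counts, and per-kb levels were computed over the bases a gene does not share instead of over exons as planned. Lines of HTSeq that name no gene (20.9 to 24.9% of reads per library) were left out.

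Counts were tested with edgeR 4.0.16 in R 4.3.3 (quasi-likelihood test, filterByExpr with a minimum count of 10 on the 6 groups, 1 fit of all 18 libraries, Benjamini-Hochberg adjustment over 19910 genes, threshold 0.05). Library sizes were the ERCC totals for amounts and TMM-scaled gene totals for shares. Standard errors of log2 fold changes were taken from the F statistics. DESeq2 1.42.0 and other filters were alternatives, and an average without the 10 min libraries was chosen after seeing the data, because feeder markers were highest in WT at 10 min. The members and lists were chosen with earlier results of these data known. Full values are given for up to 3 tested members per family with the highest level per kb, the 8 highest and 8 lowest called members and those whose difference changed with EU time. A few genes are counted here but not reported by name. The fit was tested on simulated data for the genotype average over 19910 genes, where edgeR recovered 89 of 100 genes changed by 1 and 98 of 100 changed by 2 on the log2 scale. It also called 8 unchanged genes. The changed genes were drawn at random from all genes tested, and the same spread was set for every gene. These rates need not hold for members with few reads. Replicates differed by more than counting noise (chi-square per gene 1.62 to 5.26), and none was a repeat deposit. Precision is limited by the 3 libraries per group and by the reads per member, and a count of 0 allows up to 3 reads.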

Additional observations from a re-analysis of the deposited data

Results flagged for a closer look

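For 3 of the 36 tested members the genotype difference changed between 10 and 40 min of EU. This was the interaction term of the edgeR fit on ERCC library sizes, called lower in 19.3% and higher in 0.552% of all genes. Such a change was thus not particular to these members. For Nkx2-9 the log2 fold change at 40 min minus that at 10 min was -2.26 ± 0.77 (SE, adjusted p = 0.0248), and the KO level was above the highest WT library in 3 of 3 libraries at 10 min. It rests on 3 to 25 reads per library. For Tbx4 it was -1.58 ± 0.47 (SE, adjusted p = 0.00921), with KO above WT in 3 of 3 libraries at both times. For Six4 it was -0.55 ± 0.15 (SE, adjusted p = 0.00535), again with KO above WT in 3 of 3 libraries at both times, and this call held in all 18 fits that left out 1 library. In share of reads the same changes were -2.02, -1.28 and -0.27, with adjusted p = 0.0910, 0.0515 and 0.0810. Summed feeder fibroblast markers were highest in WT at 10 min, and their part in these values was not tested.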

How the results depend on the processing

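Scaling moved the counts most. With TMM in place of ERCC totals, the members called higher and lower went from 21 and 3 to 9 and 11 on average, to 6 and 9 (10 min of EU), 4 and 5 (20 min of EU), 4 and 4 (40 min of EU), 6 and 3 for EU time in WT and 5 and 1 in KO, and none was called for the change from 10 to 40 min (8 at an unadjusted p under 0.05). DESeq2 on its gene size factors gave 9 and 11, 6 and 9, 3 and 5, 4 and 4, 4 and 3 and 4 and 1 in the same order, and for the change 1 higher and 0 lower. Under TMM, and by construction of the scale, the sign changed for Tbx2 -0.081, Hoxc13 -0.20, Pax5 -0.0066, Tbx5 -0.43, Pax6 -0.58, Nkx2-2 -0.23, Pax7 -0.64, Tbx6 -0.48, Tbx20 -0.43, Tbx18 -0.25, Hoxa7 -0.35, Six5 -0.073 and Hoxc12 -0.40. With DESeq2 gene size factors these were Tbx2 -0.088, Hoxc13 -0.20, Pax5 -0.013, Tbx5 -0.45, Pax6 -0.58, Nkx2-2 -0.24, Pax7 -0.65, Tbx6 -0.49, Tbx20 -0.44, Tbx18 -0.26, Hoxa7 -0.35, Six5 -0.085 and Hoxc12 -0.41. DESeq2 with ERCC size factors left 1 lower member at 40 min, and Irx5 was not called on average (1.06).

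With at least 10 reads in every library, 17 members were tested, so fewer could be called: 1 lower on average, 12 higher and 0 lower at 10 min, 1 lower both at 20 min and at 40 min, 17 higher for EU time in each genotype, and 5 higher and 6 lower in share. Without a filter, 52 members were higher for EU time in WT, and Lhx2, Tbx15 and Nkx2-9 lost their call in share. A floor of 10 reads in place of 3 put 53 members at or below it. Without the 10 min libraries, an average chosen after seeing the data, 7 members were lower in share, and the sign turned for Pax6 (-0.061) and Hoxa7 (-0.078) in amount and for Pax5 (0.12) in share. That average also lost the amount calls of Tbx2, Hoxc13, Pax3, Tbx20 and Nkx2-9 and the share calls of Lhx2, Lhx9, Pax7, Irx3, Tbx18, Six4, Hoxc12 and Nkx2-9, and called Irx2 in share (0.43). The cause was not tested.

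Leaving out 1 library in turn gave 19 to 23 higher and 2 to 3 lower on average, after 10 min of EU 14 to 21 higher and 1 to 2 lower, after 20 min of EU 9 to 11 higher and 1 to 3 lower, after 40 min of EU 11 to 17 higher and 1 to 2 lower, 0 higher and 1 to 4 lower for the change, 31 to 34 and 33 to 34 higher for EU time in WT and KO, and 6 to 8 higher and 9 to 12 lower in share. Signs turned in amount for Hoxc5 -0.13 to 0.070, Pax7 -0.089 to 0.27, Irx3 -0.59 to 0.075 and Pax6 -0.18 to 0.29, and in share for Pax5 -0.14 to 0.057, Six5 -0.36 to 0.16 and Tbx2 -0.18 to 0.071; none was called on the scale on which it turned. A replicate block gave 21 and 3 on average, 14 and 2 at 40 min, 33 higher for EU time in WT and 9 and 11 in share, and it changed no call of a named member's average. Replicate numbers did not pair the libraries (median r = -0.007 over 45 pairs with the same number). Members with under 10 reads per library, dishes of 1 line per genotype and unassigned shared bases limit what these counts can show.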

Other observations

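Several members share their locus with another transcript, and these neighbours were measured as well. Nkx2-2os, antisense to Nkx2-2, gave 0.48 ± 0.21 in amount (SE, adjusted p = 0.0262) and -0.21 ± 0.19 in share (adjusted p = 0.360), beside 0.45 for Nkx2-2. Pax6os1, antisense to Pax6, gave 0.55 ± 0.33 in amount (SE, adjusted p = 0.110) and -0.14 ± 0.28 in share (adjusted p = 0.704) and was not called, nor was Pax6. Gm26973, which overlaps Nkx2-1, had 5 to 41 reads per library, while Nkx2-1 had none in any library. Gm26973 gave -0.064 ± 0.29 in amount (SE, adjusted p = 0.838) and -0.75 ± 0.29 in share (adjusted p = 0.0304).

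Of the protein-coding genes that overlap a member, Fgfr2 and Inpp5a lay near the median of all genes in amount (0.70). Fgfr2, a growth factor receptor gene that encloses Nkx1-2, gave 0.67 ± 0.051 in amount (SE, adjusted p = 1.83e-32) and -0.023 ± 0.019 in share (adjusted p = 0.318). Inpp5a, which overlaps Nkx6-2, gave 0.71 ± 0.052 in amount (SE, adjusted p = 7.91e-35) and 0.018 ± 0.019 in share (adjusted p = 0.457), while Nkx6-2 fell on both scales. Slc25a21, which overlaps Pax9, gave 0.43 ± 0.15 in amount (SE, adjusted p = 0.00569) and -0.27 ± 0.13 in share (adjusted p = 0.0864). 4930447C04Rik, which overlaps Six6, had 543 to 1102 reads per library and rose, by 1.46 ± 0.061 in amount (SE, adjusted p = 3.85e-79) and 0.76 ± 0.040 in share (adjusted p = 1.16e-17), while Six6 had 2 reads in all. As no source used here gives the strand setting, reads of overlapping genes on opposite strands cannot be told apart with certainty, although opposite-strand overlap did not go with counts of 0 (84 of 739 such genes, 11.4%, against 13.1% of genes with no overlap).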
